A study of Homo sapiens with 6 samples.

Results

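The IGF receptors and IGF-binding proteins examined here were IGF2, IGF1R, IGF2R and IGFBP1 to IGFBP7. They were taken as the rows of the deposited expression table that carry these 10 gene symbols, and all 10 were found among its 19899 genes. The study measured poly(A) RNA in COV434, an established line of ovarian origin that its authors place among lines of SCCOHT, the hypercalcemic form of small cell ovarian cancer, in which BRG1 protein is missing. SMARCA4 encodes BRG1, the ATPase that drives the SWI/SNF complex in moving nucleosomes. Control cells (n = 3) received the control plasmid pCDNA3-neo and BRG1 cells (n = 3) received PBJ5-BRG1, which makes BRG1 from a plasmid. Cells of both groups also received pBABE-puro and were kept on puromycin at 2 to 3 µg/ml, which was added 24 hours after transfection and left for 3 days until harvest. The expression was transient, the line was a single one, and the table holds RNA only. The comparison of BRG1 with Control asks which RNA levels differ after BRG1 is put back.

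Insulin-like growth factors are small secreted ligands. IGF1 and IGF2 activate the receptor tyrosine kinase IGF1R, which signals through the insulin receptor substrates, PI3 kinase and AKT. IGF2R, also called the cation-independent mannose 6-phosphate receptor, has no kinase domain, carries lysosomal enzymes and takes IGF2 into the cell for breakdown. IGFBP1 to IGFBP6 are secreted proteins that bind IGFs with high affinity and hold them away from IGF1R or release them near it, often after a protease has cut the binding protein. IGFBP7 is a related secreted protein with low affinity for IGFs.

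Of the 10 genes, 5 were higher in BRG1 samples, all of them high-affinity binding proteins. These were IGFBP2, IGFBP3, IGFBP4, IGFBP5 and IGFBP6, with means 9.97 to 85.8 times those of Control. Neither DESeq2 nor edgeR called any of the 10 lower. At an unadjusted DESeq2 p under 0.05, 0 of the 10 were lower, beside 884 of 15991 tested genes. The ligand IGF2 and the receptor IGF2R had means in BRG1 samples within 1.13-fold of Control. IGF1R and IGFBP7 had higher means in BRG1 samples and were called by DESeq2 with samples paired by replicate number, but not in the unpaired fit of all 6 samples.

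The calls came from DESeq2 fitted on the whole table, with p-values adjusted over all genes and a threshold of 0.05. Among all tested genes, DESeq2 called 11% higher and 1.84% lower, against 5 of 10 and 0 of 10 here. The quasi-likelihood test of edgeR called 9.57% of its tested genes higher and 1.02% lower, and it called the same 5 members higher. Pairing the samples by replicate number as a block, DESeq2 called 13.4% of genes higher and 6.62% lower. It then called 7 of the 10 members higher and gave no adjusted p for IGFBP1. The median log2 fold change was 3.40 over the 10 members and -0.01 over all tested genes. Every BRG1 sample lay above every Control sample for 7 of the 10 members, against 16.7% of all tested genes.

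**Figure D1:**
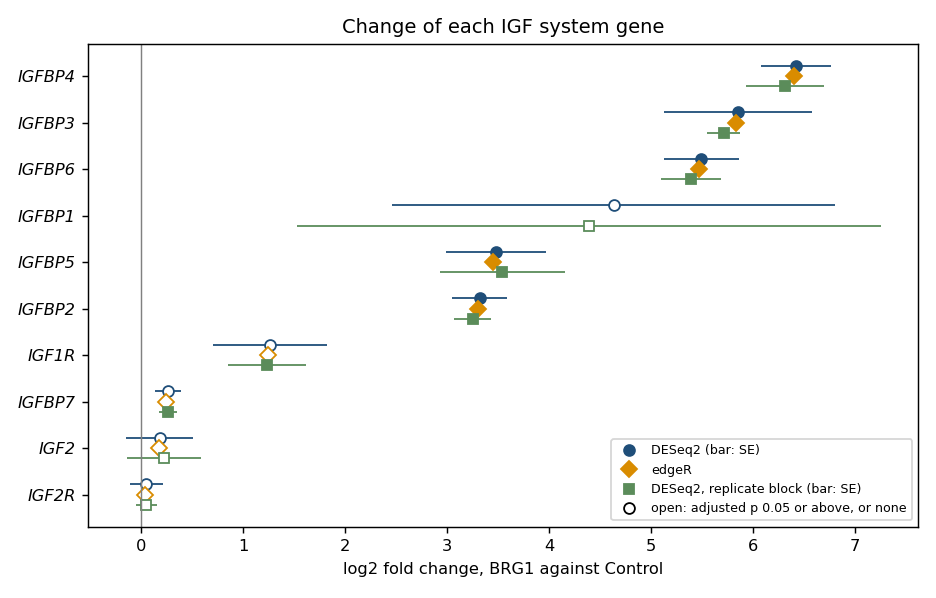
Log2 fold change of BRG1 against Control for the 10 genes by DESeq2 (circles), edgeR (diamonds) and DESeq2 with the replicate block (squares), with bars of 1 standard error for DESeq2 and open symbols where the adjusted p was not under 0.05. By DESeq2, IGFBP2 to IGFBP6 lie between 3.32 and 6.42 and IGF2 and IGF2R at 0.18 and 0.05, and IGFBP1, with Control at 0, has the widest bars.

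In these libraries of cells in bulk, more cells that make a transcript and more of it per cell cannot be told apart. The libraries held 29699741 to 63613710 estimated counts, the shallowest being BRG1 sample 3, which also lay nearest to Control on the first principal component. SMARCA4, the transfected gene, had a normalised count of 1551 ± 119 (SD, n = 3) in Control and 88773 ± 17220.0 in BRG1 samples, plasmid transcripts included. All 12 genes of an interferon response list were also called higher. That list was known beforehand to move with the groups, so the count of calls is not a separate result. The summed normalised count of its genes was 14079 to 15524 in Control and 165385 to 175495 in BRG1 samples. Of the endothelial markers, 3 of 5 were called higher (VWF, CDH5 and TEK), with sums of 1731 to 2641 in Control and 6422 to 6839 in BRG1 samples. Among them VWF was at 25.6 to 81.8 and 3224 to 3657, CDH5 at 0 to 1.51 and 43.3 to 272, KDR at 1294 to 2132 and 1392 to 2304, and PECAM1 at 37.3 or below in all samples. Granulosa cell markers were called higher for 1 gene of the 5 with an adjusted p (CYP19A1), with sums of 298 to 482 and 650.4 to 929.9, and of the other markers AMH was at 227 to 398 and 341 to 455, INHA at 35.7 to 47.5 in all samples, and FOXL2 and FSHR at 2.49 or below. Fibroblast markers were called higher for 1 of 6 (PDGFRA), with sums of 1224 to 1354 and 1103 to 1369. Leukocyte markers were called for 0 of the 2 with an adjusted p in DESeq2 or by edgeR, 0 also at an unadjusted p under 0.05, and while CD3E was at 0.831 or below, PTPRC was at 336 to 669 in Control and 359.8 to 722 in BRG1 samples. The part of these differences in the results below was not tested.

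The promoter letters of the 5 called members are shown because these genes were all called higher, and each window gives the 250 bases before a start site of the gene in RefSeq (GRCh38.p14), read on the strand of the gene. In GRCh38 (GENCODE release 44), IGFBP2 occupies bases 216632828 to 216664436 of chromosome 2, plus strand. IGFBP5 lies 7668 bases away on the minus strand, from 216672105 to 216695549, so that the genes converge. IGFBP3 lies on chromosome 7 from 45912245 to 45921874 on the minus strand, and IGFBP1 lies 18584 bases from it on the plus strand, from 45888360 to 45893660. IGFBP4 lies on chromosome 17 from 40443450 to 40457725 and IGFBP6 on chromosome 12 from 53097436 to 53102345, both on the plus strand. The RefSeq starts used for IGFBP3 and IGFBP6 fall inside the GENCODE gene spans, so their windows overlap the annotated genes. Capitals mark a GC box (GGGCGG, or CCGCCC where it is on the other strand) or a TATA box (TATAAA).
IGFBP2, chr2:216632578-216632827, plus strand: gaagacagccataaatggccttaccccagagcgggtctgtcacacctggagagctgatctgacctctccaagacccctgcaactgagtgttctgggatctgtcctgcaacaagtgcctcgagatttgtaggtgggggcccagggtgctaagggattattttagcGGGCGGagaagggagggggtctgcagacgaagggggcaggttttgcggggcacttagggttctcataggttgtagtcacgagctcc
IGFBP3, chr7:45921273-45921522, minus strand: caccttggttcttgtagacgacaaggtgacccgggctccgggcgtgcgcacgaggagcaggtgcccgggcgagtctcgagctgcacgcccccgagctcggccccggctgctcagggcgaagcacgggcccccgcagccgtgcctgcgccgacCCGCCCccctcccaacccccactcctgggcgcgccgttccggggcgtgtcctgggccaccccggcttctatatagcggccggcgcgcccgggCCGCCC
IGFBP4, chr17:40443200-40443449, plus strand: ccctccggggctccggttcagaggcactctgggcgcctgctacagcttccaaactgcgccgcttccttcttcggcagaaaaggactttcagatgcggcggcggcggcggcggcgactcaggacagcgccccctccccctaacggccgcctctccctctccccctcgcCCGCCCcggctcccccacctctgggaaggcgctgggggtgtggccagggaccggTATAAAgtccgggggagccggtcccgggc
IGFBP5, chr2:216695550-216695799, minus strand: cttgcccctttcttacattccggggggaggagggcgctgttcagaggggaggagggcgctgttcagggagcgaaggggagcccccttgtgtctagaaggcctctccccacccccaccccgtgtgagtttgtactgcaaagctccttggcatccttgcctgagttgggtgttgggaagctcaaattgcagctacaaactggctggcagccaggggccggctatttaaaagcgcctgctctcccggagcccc
IGFBP6, chr12:53097417-53097666, plus strand: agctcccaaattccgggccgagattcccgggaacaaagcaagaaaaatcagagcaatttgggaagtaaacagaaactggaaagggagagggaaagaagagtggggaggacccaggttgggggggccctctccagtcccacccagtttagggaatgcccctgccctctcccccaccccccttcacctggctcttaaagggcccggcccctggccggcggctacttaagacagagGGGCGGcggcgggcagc

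Windows were found for 7 of the 10 members, 9 windows in all, since IGFBP2 has 3 starts, of which the first along the chromosome is shown above. On both strands, the AP-1 site TGACTCA was found in 4.2% of 35116 promoter windows of this length, the CRE TGACGTCA in 1.65% and the interferon-stimulated response element, here GAAA, any 2 bases and GAAA, in 3.02%. None of these 3 motifs was matched in the 9 member windows, which says only that these letters are not within them. The GC box was found in 42.6% of all windows and in 4 of the 5 windows shown, IGFBP5 being the one without it. It began 86 bases before the start in IGFBP2, 98 and 6 in IGFBP3, 83 in IGFBP4 and 17 in IGFBP6. Of the other IGFBP2 windows, the one before base 216633420 held a GC box 49 bases before the start and the one before base 216659567 held none. The exact TATA box letters TATAAA were found in 10.7% of all windows and, among the members, in IGFBP4. There they began 29 bases before the start, and variants of the box were not searched for. The share of G and C was 56.8% in the IGFBP2 window shown (69.2% and 56.4% in its other windows), 76% in IGFBP3, 71.6% in IGFBP4, 61.2% in IGFBP5 and 61.2% in IGFBP6, beside a median of 58% over all windows.

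IGFBP4, which in most settings restrains IGF action and is cut by the protease PAPP-A, had the highest fold. Its normalised counts, which are estimated counts divided by a size factor per sample, were 234, 185 and 209.7 in Control samples 1 to 3 and 27109, 17034 and 9814 in BRG1 samples 1 to 3. The groups were far apart, and the Control samples were close to each other while the BRG1 samples spread over a wide range. On the log2 scale it rose by 6.42 (standard error, SE, 0.34), with an adjusted p of 7.44e-77 in DESeq2 and 0.000104 in edgeR. Within replicate numbers 1, 2 and 3 the fold was 116, 91.9 and 46.8.

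IGFBP3, the main IGF carrier of blood plasma, rose next most. Control samples held 296, 211 and 104 normalised counts, and BRG1 samples held 18808, 12442 and 3889.6. In both groups sample 1 was the highest and sample 3 the lowest, and the lowest BRG1 sample was still far above the highest Control sample. This was a log2 change of 5.85 (SE 0.73), with an adjusted p of 4.03e-14 in DESeq2 and 0.00117 in edgeR. The fold within replicate numbers was 63.5, 58.9 and 37.2, a narrower range than that of the BRG1 counts themselves.

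IGFBP6, which prefers IGF2 to IGF1, rose from a low level in Control. It had 25.6, 39.9 and 28 normalised counts in Control and 2087, 1236 and 866 in BRG1 samples. No BRG1 sample came near the Control range. DESeq2 fitted a log2 change of 5.49 (SE 0.37), with an adjusted p of 1.01e-46 in DESeq2 and 0.000147 in edgeR. Fold within replicate numbers was 81.6, 31 and 30.9.

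IGFBP2, a carrier found at high levels in many tumors and fetal tissues, was the called member with the most RNA in Control. Its normalised counts were 1246, 1289 and 1233 in Control and 17119.6, 12231 and 8209 in BRG1 samples. The Control samples were nearly level, with an SD of 29 around a mean of 1256, and BRG1 samples had a mean of 12520.0 ± 4462. On the log2 scale it rose by 3.32 (SE 0.27), with an adjusted p of 9.94e-34 in DESeq2 and 0.000186 in edgeR. Fold within replicate numbers was 13.7, 9.49 and 6.66.

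IGFBP5, the neighbor of IGFBP2 and a binding protein that also attaches to extracellular matrix, rose from a very low level. Control samples held 7.31, 4.69 and 11.4 normalised counts and BRG1 samples 104, 87.2 and 77.6. BRG1 samples were close to each other here, with a mean of 89.8 ± 13.6 (SD, n = 3). This was a log2 change of 3.48 (SE 0.49), with an adjusted p of 3.45e-11 in DESeq2 and 0.00132 in edgeR. Of its exonic bases 7.53% are shared with DIRC3-AS1, and because the libraries did not keep strand, RNA of that gene may be counted in it.

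The 5 calls held when any 1 of the 6 samples was left out. The highest DESeq2 adjusted p then was 1.18e-22 for IGFBP2, 9.43e-10 for IGFBP3, 2.53e-52 for IGFBP4, 2.14e-06 for IGFBP5 and 7.18e-32 for IGFBP6. In all 5 the count was highest in BRG1 sample 1, lower in BRG1 sample 2 and lowest in BRG1 sample 3, an order found in 68.4% of the 1764 genes called higher. SMARCA4 stood at 108655, 79075 and 78589 normalised counts in the same samples, and the library totals were 63613710, 54451035 and 29699741. Whether either had a part in that order was not tested.

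**Figure D2:**
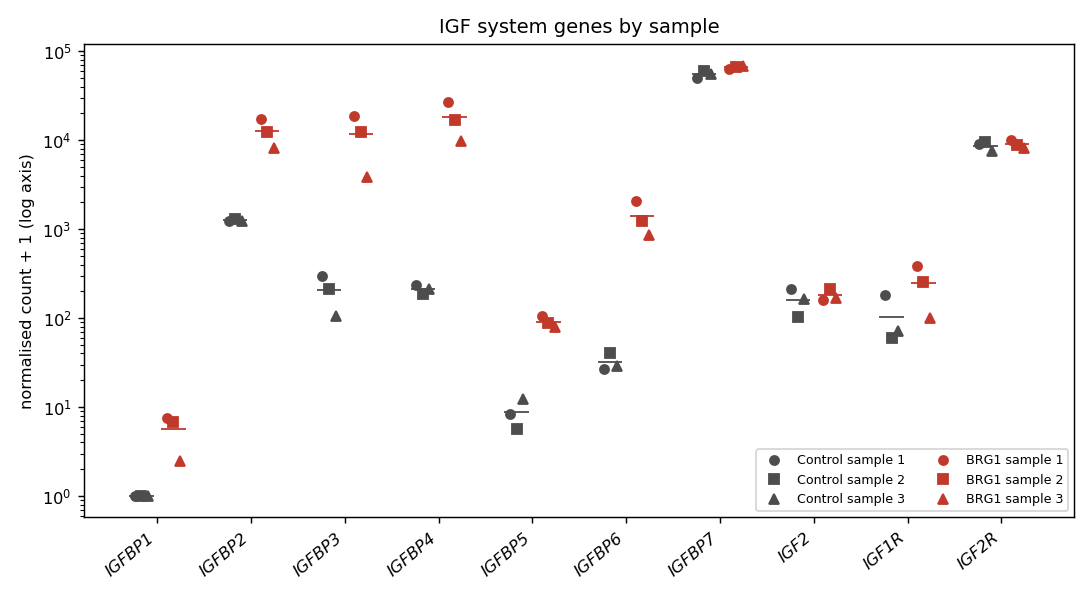
Normalised counts of the 10 genes in each of the 3 Control and 3 BRG1 samples, on a log scale of count + 1, with a short line at each group mean. For IGFBP2 to IGFBP6 the BRG1 points stand clear above the Control points, and for IGF2, IGF1R and IGF2R the points of the groups overlap.

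IGFBP1, a binding protein made mainly in liver and decidua under the control of insulin, was at 0 in all Control samples. BRG1 samples held 9.31, 6.53 and 1.15 estimated counts, or 6.53, 5.81 and 1.49 normalised counts. Taking 3 counts per library as the floor of detection, the BRG1 mean of 4.61 ± 2.72 was 1.47 times that floor. BRG1 sample 3 was itself under the floor, so that sample cannot be told apart from Control. The adjusted p was 0.178 in DESeq2, and edgeR did not test the gene because its counts were too low.

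IGFBP7 was by far the most abundant of the family in both groups and differed little. Its normalised counts were 50559.8, 60167 and 55398 in Control and 62781, 66412 and 69099 in BRG1 samples. The groups did not overlap, but the lowest BRG1 sample was only 1.04 times the highest Control sample. DESeq2 fitted a log2 change of 0.26 (SE 0.13), with an adjusted p of 0.239 in DESeq2 and 0.241 in edgeR. With replicate numbers as a block the adjusted p was 0.0225 in DESeq2, which passed the threshold, and 0.0946 in edgeR, which did not. The fold within replicate numbers was 1.24, 1.1 and 1.25. IGFBP7 lies on chromosome 4 from 57030773 to 57110385 on the minus strand, and 18.3% of its exonic bases are shared with IGFBP7-AS1 and POLR2B.

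IGF2, the ligand among the 10, did not separate the groups. Control samples held 211, 102 and 164 normalised counts and BRG1 samples 159.6, 213 and 167. The ranges overlapped, and the lowest of the 6 values was a Control sample while the highest values of the groups were nearly equal. This was a log2 change of 0.18 (SE 0.33), with an adjusted p of 0.865 in DESeq2 and 0.834 in edgeR. IGF2 lies on chromosome 11 from 2129112 to 2158391 on the minus strand. Other genes, among them INS-IGF2 and IGF2-AS, cover 44.4% of its exonic bases, so that its level is less certain than that of the other members.

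IGF2R, the clearance receptor, had the smallest log2 change of the 10. Its normalised counts were 8944, 9438 and 7624 in Control and 10022, 8795 and 8151 in BRG1 samples. The ranges overlapped over most of their width. DESeq2 fitted a log2 change of 0.05 (SE 0.16), with an adjusted p of 0.93 in DESeq2 and 0.914 in edgeR. IGF2R spans bases 159969082 to 160113507 of chromosome 6, plus strand, with 48 exons in its canonical transcript.

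IGF1R, the signaling receptor, varied widely among samples of either group. It had 179, 58.6 and 71.2 normalised counts in Control and 382, 256 and 98.5 in BRG1 samples. The lowest BRG1 sample lay below the highest Control sample, so that the groups overlapped, although each BRG1 sample was above the Control sample of its own number. This was a log2 change of 1.26 (SE 0.56), with an adjusted p of 0.143 in DESeq2 and 0.286 in edgeR. With the replicate number as a block it was 1.23 with a standard error of 0.38, and the adjusted p was 0.00793 in DESeq2 and 0.0367 in edgeR. In DESeq2 without the block, leaving out Control replicate 1 gave a log2 fold change of 1.92 with an adjusted p of 0.0076. Leaving out BRG1 replicate 3 gave 1.64 with 0.00999. With any other sample left out IGF1R was not called, at log2 fold changes of 0.79 to 1.23 and adjusted p of 0.402 to 0.705. IGF1R spans bases 98648539 to 98964530 of chromosome 15, plus strand, with 21 exons in its canonical transcript.

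**Figure D3:**
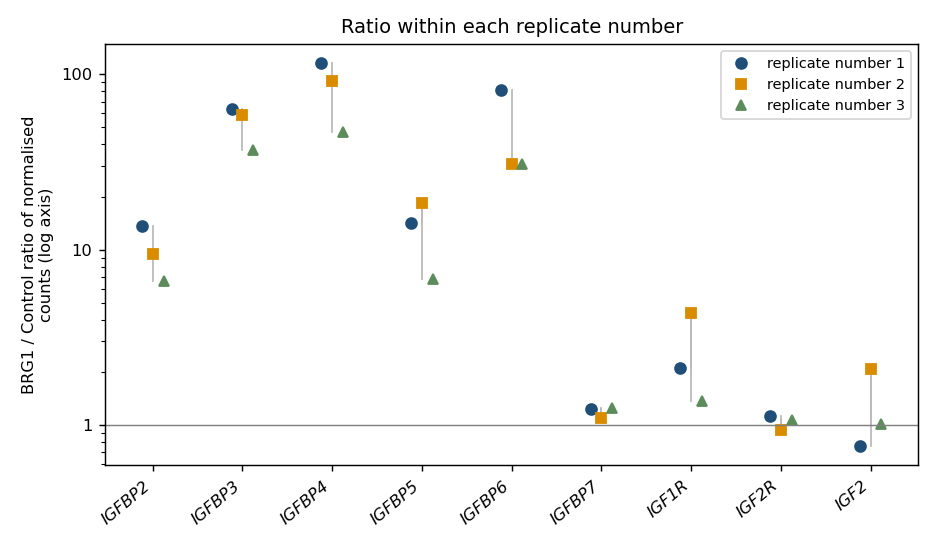
Normalised count of each BRG1 sample divided by the Control sample of the same replicate number, on a log scale, for the 9 genes with counts in Control, with a thin line over the range. The ratios of IGF1R are 2.13, 4.36 and 1.38, those of IGFBP7 lie between 1.1 and 1.25, and those of IGF2 lie on both sides of 1.

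To compare levels between genes, normalised counts were divided by the length in kilobases of the canonical transcript. In Control, IGFBP7 led with 38805 ± 3366 (SD, n = 3) normalised counts per kilobase, followed by IGFBP2 with 888 ± 20.5 and IGF2R with 617 ± 66.7. IGFBP4, IGFBP3, IGFBP6 and IGF2 followed at 95.1 to 28.5, and neighbors in that order overlapped in range. IGF1R at 8.42, IGFBP5 at 1.25 and IGFBP1 at 0 closed the order without overlap.

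In BRG1 samples IGFBP7 was again first, with 46319 ± 2222 normalised counts per kilobase. IGFBP2 at 8854 ± 3156, IGFBP4 at 8157 ± 3939.8, IGFBP3 at 4483 ± 2865 and IGFBP6 at 1474 ± 661 now all stood above IGF2R at 639 ± 67.6, and each overlapped the next in range except IGFBP6 and IGF2R. The level of IGF2 was 32.2 ± 5.14, that of IGF1R 20 ± 11.6, that of IGFBP5 14.4 ± 2.18 and that of IGFBP1 3.05 ± 1.8. IGF1R overlapped both IGF2 and IGFBP5 in range. IGFBP5 therefore remained a minor transcript although its fold was 11.5.

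The make-up of the binding protein RNA changed with these levels. Of the per-kilobase sum over IGFBP1 to IGFBP7, IGFBP7 held 96.9%, 97.4% and 97.4% in Control samples and 56.5%, 67.4% and 79.3% in BRG1 samples. IGFBP1 to IGFBP6 together held 2.76% ± 0.284 (SD, n = 3) in Control and 32.3% ± 11.4 in BRG1 samples, with no overlap. The largest parts in BRG1 samples were IGFBP2 with 12.5% ± 3.03, IGFBP4 with 11.4% ± 4.26 and IGFBP3 with 6.2% ± 3.46. The sum over the 7 genes was 39901 ± 3362 normalised counts per kilobase in Control and 69305 ± 8366 in BRG1 samples. These are shares of RNA, not of protein.

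**Figure D4:**
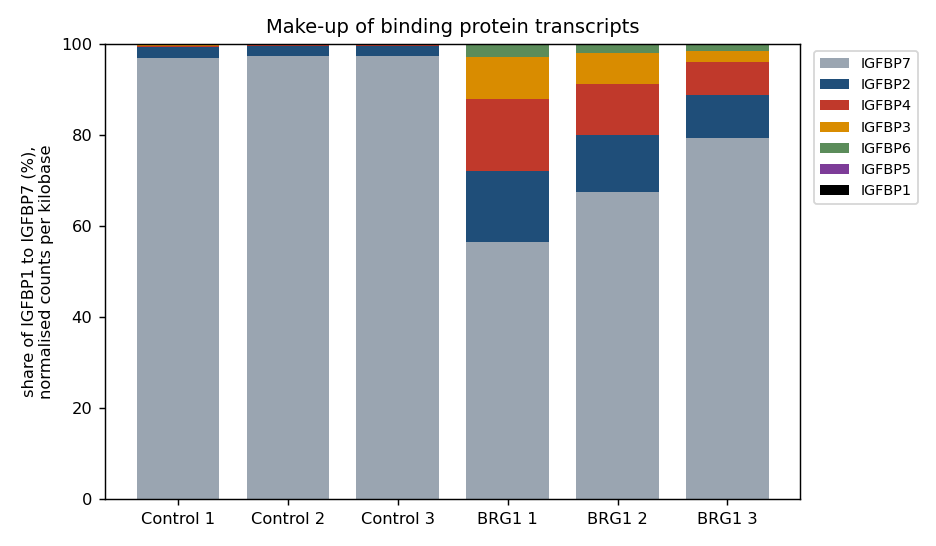
Share of each binding protein in the per-kilobase sum over IGFBP1 to IGFBP7, in percent, stacked for each of the 6 samples. IGFBP7 fills at least 96.9% of each Control bar and 56.5% to 79.3% of the BRG1 bars, while IGFBP1 and IGFBP5 are too small to be seen.

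Profiles over the 6 samples were compared among the called members. Likeness was the root mean square difference between log2(normalised count + 1) values centred on each gene's mean, so that 0 means the same profile. The values are not scaled, so the measure reflects mostly how close the folds are. The neighbors IGFBP2 and IGFBP5 were the closest pair at 0.40, with log2 changes of 3.32 and 3.48, although their BRG1 samples spread differently. IGFBP4 and IGFBP6 stood at 0.55, IGFBP3 and IGFBP4 at 0.59 and IGFBP3 and IGFBP6 at 0.62, while all other pairs lay between 1.08 and 1.53. Among 11685 genes with a mean of at least 100 normalised counts, the nearest to IGFBP2 were CPPED1 at 0.09, TNFRSF21 at 0.11 and RBPMS at 0.13. Nearest to IGFBP3 were COL4A2, a basement membrane collagen, at 0.19, F3, the tissue factor of blood clotting, at 0.23 and GBP1 at 0.23. For IGFBP4 they were the protease PRSS23 at 0.08, TRABD2B at 0.15 and the transcription factor RUNX2 at 0.19. CHST2 at 0.22, FHDC1 at 0.26 and ITPR3 at 0.28 were nearest to IGFBP5. For IGFBP6 they were the adhesion molecule CEACAM1 at 0.11, the adrenergic receptor ADRA2A at 0.22 and the matrix protease MMP2 at 0.22.

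The other genes of the pathway were taken from 9 lists with 90 genes, of which 88 were in the table and 82 had a DESeq2 adjusted p. Of these 82, DESeq2 called 13 higher and 0 lower. At an unadjusted DESeq2 p under 0.05, 0 were lower, beside 884 of 15991 tested genes. The share of the 82 called higher was not far above the 11% of all tested genes. The same 11% is the background for the counts called higher by DESeq2 in each list below. By edgeR, which tested fewer of the pathway genes, 11 passed as higher and 0 as lower. Their median log2 fold change was 0.02, and 45 of 84 genes with a fold change were above 0. With replicate numbers as a block, DESeq2 called 16 higher and 3 lower and edgeR 15 and 3. Among all tested genes, DESeq2 with the block called 13.4% higher and 6.62% lower, and the 3 pathway genes were a smaller share than the latter. The 3 lower genes, named after their values were seen, were the insulin receptor INSR, the PI3 kinase subunit PIK3R3 and the kinase GSK3B, with blocked DESeq2 adjusted p of 0.0283, 0.0114 and 0.0199.

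The ligand IGF1 was called higher, as 1 of the 3 other ligands and carriers with an adjusted p. Its normalised counts were 40.2, 78.6 and 42.4 in Control and 498, 267 and 85.1 in BRG1 samples. The groups did not overlap, though the lowest BRG1 sample was only 1.08 times the highest Control sample. On the log2 scale it rose by 2.40 (SE 0.58), with an adjusted p of 0.000424 in DESeq2 and 0.0474 in edgeR. Fold within replicate numbers was 12.4, 3.39 and 2.01. Leaving out 1 sample gave a log2 change of 1.72 (without BRG1 replicate 1) to 2.84 (without BRG1 replicate 3), with a DESeq2 adjusted p of up to 0.0401. INS, the insulin gene, was at 0 in all 6 samples.

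Enzymes that cut the binding proteins, and their inhibitors, were called higher for 4 of 8. PAPPA encodes PAPP-A, which cleaves IGFBP4 in the presence of IGF, and it went from 98.7, 124 and 170.4 normalised counts in Control to 2472, 1475 and 815 in BRG1 samples. This was a log2 change of 3.59 (SE 0.40), with an adjusted p of 5.88e-18 in DESeq2 and 0.00128 in edgeR. STC1, an inhibitor of PAPP-A, rose as well, from 124 ± 44.8 (SD, n = 3) to 468 ± 55.1, with an adjusted p of 9.32e-09 in DESeq2 and 0.00521 in edgeR. Both the protease and its inhibitor were thus called in the same direction as IGFBP4. PAPPA2, which cleaves IGFBP3 and IGFBP5, was at the floor in Control and at 31.2, 34.1 and 58.2 in BRG1 samples, at least 13.1-fold higher, with an adjusted p of 1.88e-06 in DESeq2 and 0.00151 in edgeR. ADAM12, a metalloprotease with the same substrates, was also at the floor in Control and at least 13.2-fold higher in BRG1 samples, where it had 41.6 ± 8.64 normalised counts, with an adjusted p of 3.46e-06 in DESeq2 and 0.000828 in edgeR. The serine protease HTRA1 was at 0.42 on the log2 scale, with 0.336 as its DESeq2 adjusted p. The lysosomal protease CTSD was at 0.37, with 0.193, and was called with the block at 0.00835 in DESeq2; both were named after their values were seen.

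Genes that share a domain with the binding proteins were called higher for 4 of 8 by DESeq2 and for 3 by edgeR, which tested fewer of them. ESM1, a proteoglycan of endothelial cells, rose from 10 ± 1.61 (SD, n = 3) to 616 ± 113 normalised counts, with an adjusted p of 8.92e-60 in DESeq2 and 4e-05 in edgeR. CTGF, a matricellular protein, rose from 4208 ± 421 to 29615 ± 22425, with an adjusted p of 5.42e-08 in DESeq2 and 0.0116 in edgeR. CRIM1, a membrane protein that binds BMPs, rose from 2759 ± 429 to 8403 ± 3369, with an adjusted p of 7.47e-07 in DESeq2 and 0.00648 in edgeR. WISP1 was called by DESeq2 and was not tested by edgeR, because its counts were too low. It was at 0 in Control and at least 4.42-fold higher in BRG1 samples, with a DESeq2 adjusted p of 0.00253. That value reached 0.115 when 1 sample was left out, and WISP1 was named after its values were seen. CYR61, a matricellular relative of CTGF named after its values were seen, spread from 3211 to 19375 normalised counts within Control and from 8494 to 66981 in BRG1 samples. It was at 1.74 on the log2 scale with a DESeq2 adjusted p of 0.288, while with the block the adjusted p was 1.89e-47 in DESeq2 and 3.76e-05 in edgeR.

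Of the 34 receptor signaling genes with an adjusted p, 2 were called higher, a smaller share than the 11% of all tested genes. GRB10, an adaptor that binds the insulin and IGF receptors and restrains them, rose from 111 ± 4.19 (SD, n = 3) to 864 ± 287 normalised counts, with an adjusted p of 8.53e-22 in DESeq2 and 0.000536 in edgeR. FOXO1, a transcription factor that AKT keeps out of the nucleus, rose from 137 ± 48.3 to 1018 ± 552, with an adjusted p of 2.59e-09 in DESeq2 and 0.00663 in edgeR. FOXO4, of the same family and named after its values were seen, was at 0.86 on the log2 scale, with 0.0783 as its DESeq2 adjusted p. It was called with the block, at 1.29e-06 in DESeq2 and 0.0033 in edgeR, and in DESeq2 without the block its adjusted p ranged from 0.0371 to 0.493 when 1 sample was left out. The median log2 fold change over the list was -0.08.

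Among partners of the binding proteins at the cell surface, 1 of 5 was called higher. It was CAV1, the coat protein of caveolae, which rose from 177 ± 32.7 (SD, n = 3) to 3421 ± 2176 normalised counts, with an adjusted p of 4.37e-19 in DESeq2 and 0.00171 in edgeR. Of the proteins that bind IGF2 mRNA, IGF2BP2 was called higher by DESeq2 with a log2 fold change of 0.45 and an adjusted p of 0.0286, was not called by edgeR at 0.0744, and reached 0.215 in DESeq2 when 1 sample was left out. IGF2BP3 had a log2 fold change of 0.01 with a DESeq2 adjusted p of 0.991.

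No gene was called by DESeq2 or edgeR, in either direction, among 6 genes of the IGF2 locus and its regulators, 10 of mannose 6-phosphate sorting and 5 of the growth hormone axis. H19 and KCNQ1OT1, also listed for the IGF2 locus, were not in the table. PLAG1 and ZFP57 of that list had counts too low for edgeR to test. At an unadjusted p under 0.05 in DESeq2, 0 of the genes of these lists were lower and 0 higher. Over all 15991 tested genes, 884 were lower and 2420 higher. For CTCF and HMGA2, regulators of the IGF2 locus, the log2 fold change was -0.17 and -0.13. It was 0.03 for M6PR, the other mannose 6-phosphate receptor, and -0.17 for the retromer subunit VPS35. For the growth hormone signaling genes STAT5B and SOCS2 it was -0.03 and -0.34. Their DESeq2 adjusted p lay between 0.663 and 0.952.

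**Figure D5:**
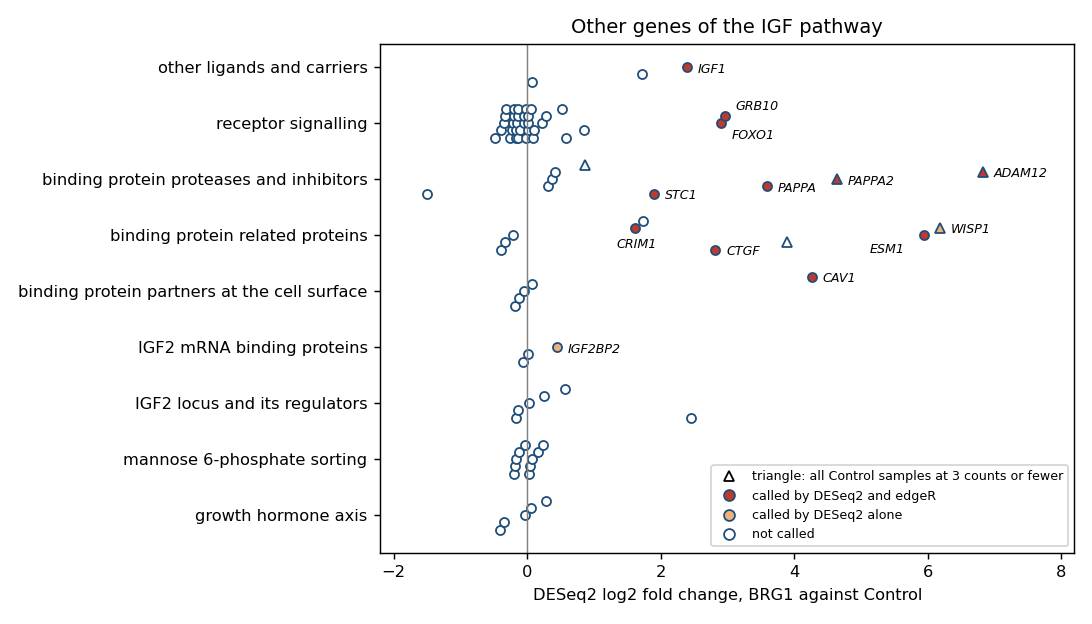
DESeq2 log2 fold change of BRG1 against Control for the other genes of the pathway, one row of points per list, with filled points for genes called. The 13 called genes lie to the right of 0, and the lists of the IGF2 locus, mannose 6-phosphate sorting and the growth hormone axis hold no filled point.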

How the data were processed

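Poly(A) RNA-seq of 3 Control and 3 BRG1 samples was examined, grouped by the labels. Libraries came from 500 ng of RNA by a kit that does not mark strand, with paired reads of 78 bases. The authors checked reads with FastQC 0.11.5, aligned them with STAR 2.5.3a to hg38, quantified transcripts with Salmon 0.8.2 against an earlier GENCODE release and collapsed transcripts into genes by tximport. What the authors deposited were estimated counts for each gene symbol, which they scaled by transcript length (lengthScaledTPM) and did not divide by library size. Salmon divides a read among the genes it matches, and antisense or overlapping transcripts add to a gene's value.

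Estimated counts were rounded and tested in R 4.3.3 with the Wald test of DESeq2 1.42.0, BRG1 against Control without covariates, since the study names DESeq2 and no covariate. Benjamini-Hochberg adjustment ran over all genes, and a gene was called at an adjusted p under 0.05. The quasi-likelihood test of edgeR 4.0.16, limma 3.58.1 (voom), other size factors, other count filters, the replicate block and leaving out each sample were alternatives. Data were simulated from these samples with a small part of the genes changed and with no effect of the replicate number. In such data the share of false calls in DESeq2 was 26.5%, and 31.4% with the replicate block. Both were far above the threshold of 0.05. In edgeR the share was 4.05%, and 5.88% with the block, close to the threshold. The edgeR value is therefore given beside each member. A share of false calls depends on how many genes truly change, so these shares do not apply as they stand to the calls here. Values are means ± SD of normalised counts over 3 samples, and library totals of 29699741 to 63613710 estimated counts set the counting error. Where every library of a group held 3 counts or fewer, that group counted as at the floor, and folds over it are lower bounds.

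The series' design text calls the samples biological replicates, and the labels number them 1 to 3 in each group. Over 14220 genes, deviations from the group means correlated at 0.341, 0.298 and 0.459 between samples of the same number. Between different numbers they correlated at -0.362 to 0.069. Deviations cancel within a group, so these values are not separate from the former. The numbers were taken to pair the samples in the fits with the replicate block. The labels do not state a pairing, and the main calls did not use it.

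All 10 members and SMARCA4 are named. From each pathway list, genes called by DESeq2 and edgeR were named, up to 6 a list, or where there were none the 2 with the highest mean. For each called member the 3 genes with the nearest profile were named. Members and lists were chosen with earlier results of these data known. Positions and lengths come from GENCODE release 44 on GRCh38, and promoter windows from RefSeq.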

Additional observations from a re-analysis of the deposited data

How the results depend on the processing

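The 5 calls of IGFBP2 to IGFBP6 were made in every alternative that was run, which were edgeR, limma-voom, TMM factors, a filter of at least 10 counts in 3 samples, no independent filtering, the replicate block in DESeq2 and edgeR, an adjusted p under 0.01 and leaving out each sample. The count of members called higher was 5 to 7 over these settings, and the count called lower was 0 in each. IGFBP1 has no value with edgeR, limma-voom or the count filter, and no adjusted p in DESeq2 with the replicate block, since its counts are too low. With the replicate block, IGF1R passed the threshold with log2 fold changes of 1.23 in DESeq2 and 1.21 in edgeR, and IGFBP7 passed it in DESeq2 at 0.26. The other pathway genes called lower went from 0 to 3 in DESeq2 and to 3 in edgeR. Over all tested genes the share called lower by DESeq2 went from 1.84% to 6.62%. The block changed no call of another member, and the cause of these changes was not tested. Leaving out 1 sample in turn, the log2 fold change of IGF1R was 0.79 to 1.92, that of IGF2 -0.05 to 0.43 (below 0 without Control replicate 2) and that of IGF2R -0.03 to 0.12 (below 0 without Control replicate 3 and without BRG1 replicate 1). The pathway genes called lower then numbered 0 to 1, with 1, GSK3B, without BRG1 replicate 1. With 3 samples a group, small differences such as that of IGFBP7 could not be settled, and depth limits IGFBP1 in particular.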

Other observations

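The IGF-like family, secreted proteins named for a distant likeness to IGFs, was not among the 10 genes and was looked at after its values were seen. IGFL1 had 26.8, 22.3 and 16.7 normalised counts in Control and 12078, 10387 and 7097 in BRG1 samples, with a log2 fold change of 8.84 and an adjusted p of 9.71e-178 in DESeq2 and 9.13e-06 in edgeR. IGFL2 had 115, 223 and 368 in Control and 3015, 2044 and 1157 in BRG1 samples, with a log2 fold change of 3.14 and an adjusted p of 4.45e-11 in DESeq2 and 0.00447 in edgeR. In both genes every BRG1 sample was above every Control sample. IGFL4 had a log2 fold change of 1.24 with an adjusted p of 0.00968 in DESeq2 and 0.0613 in edgeR, and up to 0.188 in DESeq2 when 1 sample was left out. IGFL3 at 0.65 and the receptor IGFLR1 at 0.15 were not called, with DESeq2 adjusted p of 0.467 and 0.926.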
